A study of Mus musculus with 12 samples.

Results

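Gm-numbered genes are gene models of the mouse genome that carry a provisional symbol, the letters Gm followed by a number. Of 33024 rows in the table of gene counts, 7967 carried such a symbol and 66 of these were kept here, those with a mean of 5 CPM or more over 12 mice (CPM, the count of a gene scaled to a common library total). They were chosen by their measured level alone, save that the rule named Gm2115 with its result known, so the values of Gm2115 are given as a description with no test. Of the 7967 rows, 4402 (55.3%) were at 0 in every mouse, 3320 (41.7%) lay under 1 CPM, 179 (2.25%) lay from 1 to under 5 CPM, and 66 (0.828%) reached 5 CPM. Just above the limit stood Gm45871 with a mean of 5.56 CPM, Gm38413 with 5.57 CPM and Gm973 with 5.77 CPM. Just below it stood Gm21811 with 4.97 CPM, Gm527 with 4.91 CPM and Gm16835 with 4.90 CPM.

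The study asked which lasting changes binge-like alcohol drinking leaves in the brain, and sequenced RNA from the brain cortex of wildtype C57BL/6 mice. The 5 EtOH mice had drunk ethanol in a drinking-in-the-dark paradigm with a choice of bottles (2BC-DID) that began in adolescence, and were then abstinent before behavioural testing and tissue collection. The 7 Control mice received vehicle, which was water, on the same schedule. Each library came from bulk tissue of a separate mouse, so that a lower share of a cell type and less RNA per cell cannot be told apart, and the labels give no litter, cage or sequencing batch.

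A Gm number says nothing about what a gene does. It is assigned when a gene model has been predicted but no function or family name has been agreed upon, and it covers long non-coding RNAs (lncRNAs), pseudogenes, read-through models that join exons of neighbouring genes, and coding genes that later receive a proper name. Pseudogenes of the processed kind are copies of a messenger RNA that were written back into the genome, so that short reads from the copy and from the coding gene can be the same. Reads counted on a Gm-numbered gene are therefore read beside the genes with which it shares sequence, strand or position.

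Of the 66 genes, 47 were placed in the Gencode annotation of GRCm39 (release 39, newer than that of the authors), 45 by symbol and 2 by a synonym in RefSeq. These were 18 protein-coding genes, 20 lncRNAs and 9 pseudogenes, and the other 19 were not placed. Gm2115 was listed as a synonym of Ctxnd1, cortexin domain containing 1, on chromosome 7 from 84178162 to 84232739 of the plus strand. Gm35339 was listed as a synonym of Wdr97, WD repeat domain 97, on chromosome 15 from 76238632 to 76249401 of the plus strand. The coding sequence of Gm2115 is shown because this gene had the largest fold change of the 66 and its symbol alone does not tell that it encodes a protein. It holds 180 bases of GRCm39, with the start and stop codons in capitals.
Gm2115: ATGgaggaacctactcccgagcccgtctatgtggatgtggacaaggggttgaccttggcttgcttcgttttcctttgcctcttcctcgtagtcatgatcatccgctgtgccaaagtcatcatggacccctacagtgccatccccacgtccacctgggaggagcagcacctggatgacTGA

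The pseudogenes Gm4202, Gm4204 and Gm15459 are shown beside the coding gene that each resembles because nearly all of their bases were the same. Gm4202 lies on chromosome 3 from 92596733 to 92597465 of the plus strand, and is a copy of Ywhaz, which encodes the 14-3-3 zeta adaptor protein. Over 733 aligned positions it differed from the Ywhaz coding sequence by 0 substitutions and 1 inserted base, and the longest run without a difference was 585 bases. Gm4204 lies on chromosome 1 from 135159733 to 135160963 of the plus strand, and resembles Nap1l1, which encodes a histone chaperone. It carried 2 substitutions over 1090 positions, C25T and G714A, written with the Nap1l1 base first and counted from the first base of its coding sequence. Gm15459 lies on chromosome 5 from 5831615 to 5833555 of the minus strand, and resembles Hspa8, which encodes the constitutive heat shock protein HSC70. It carried 5 substitutions over 1755 positions, G114A, C414T, C549T, G1222A and C1440T, counted in the same way. A stretch of 90 bases of each pseudogene is printed below with the matching stretch of the coding gene, and capitals mark the bases that differ.
Gm4202: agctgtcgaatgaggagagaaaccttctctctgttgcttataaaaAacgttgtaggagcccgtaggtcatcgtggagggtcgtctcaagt
Ywhaz: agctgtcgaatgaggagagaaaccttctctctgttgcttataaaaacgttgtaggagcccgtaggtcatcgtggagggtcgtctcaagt
Gm4204: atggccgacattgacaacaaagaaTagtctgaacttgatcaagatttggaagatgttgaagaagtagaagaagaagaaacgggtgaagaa
Nap1l1: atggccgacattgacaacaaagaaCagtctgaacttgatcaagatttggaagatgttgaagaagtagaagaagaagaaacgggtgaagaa
Gm15459: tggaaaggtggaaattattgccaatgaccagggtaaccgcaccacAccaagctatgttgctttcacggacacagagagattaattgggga
Hspa8: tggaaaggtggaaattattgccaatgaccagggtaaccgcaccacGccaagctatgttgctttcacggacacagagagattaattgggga
The inserted base of Gm4202 shifts its reading frame against that of Ywhaz, and C25T turns a cag codon of Nap1l1 into the stop codon tag.

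Total counts lay between 31768076 and 40690223 in Control mice and between 32048723 and 42183029 in EtOH mice, so that 3 counts, the least taken as detected, were worth between 0.0711 and 0.0944 CPM. Control 5 and EtOH 1 were the deeper library of each group and stood apart from the others in depth. The 66 genes together took a mean of 1378 ± 41.8 CPM in Control mice (SD, n = 7) and 1411 ± 46.8 CPM in EtOH mice (SD, n = 5), and the ranges, 1303 to 1430 and 1359 to 1477, overlapped. Of the mean over all mice, 1392 CPM, 667 CPM lay in rows that were identical to another row or not whole, with the row of Gm20187 and Gm9866 counted under both symbols. The genes with a row of their own summed to 672 to 734 CPM in Control mice (703 ± 19.3, SD, n = 7) and 727 to 800 CPM in EtOH mice (756 ± 29.0, SD, n = 5), and Gm2115 alone took 13.2 CPM of the first mean and 57.7 CPM of the second. Tissue markers differed between the groups. All 15 striatum markers tested were called lower in EtOH mice, with summed levels from 1241 to 2847 CPM in Control mice against 295 to 363 CPM in EtOH mice. Of 15 hippocampus markers, 9 were called higher and 1 lower, with sums from 772 to 892 CPM against 1039 to 1271 CPM. Of 10 cortex markers, 1 was called higher and 2 lower, with sums from 2574 to 2994 CPM against 2382 to 2886 CPM. Of 8 oligodendrocyte markers, 2 were called lower, with sums from 4456 to 5772 CPM against 2971 to 5324 CPM. Of 7 choroid plexus markers tested, 5 were called higher, with sums from 7.90 to 22.9 CPM against 13.0 to 1018 CPM. Of 5 blood markers none was called (0 of 5), with sums from 9.07 to 126 CPM against 9.74 to 75.8 CPM. No defining marker of these lists was at 0 throughout, and the part of these tissues in the results that follow was not tested.

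Not every row with a Gm number held counts of its own. For 17 of the 66 genes (25.8%), the counts were identical in every mouse to those of another symbol, against 114 of all 16059 rows tested (0.71%). In 15 of them the other symbol carried no Gm number. Gm6829, annotated as a pseudogene on chromosome X, had the counts of Golga7, with a mean of 77.0 CPM, and Gm35857, a pseudogene on chromosome 8, had those of Atp5md, a subunit of the mitochondrial ATP synthase, with a mean of 85.4 CPM. Likewise Gm46442 had the row of the ribosomal protein gene Rpl23a (39.5 CPM), Gm44504 that of Ubl4a (66.5 CPM), Gm16108 that of the mitochondrial deubiquitinase gene Usp30 (44.8 CPM) and Gm51400 that of Fkbp2 (46.3 CPM). Gm3414 had the row of Lcorl, Gm5897 that of the sulfotransferase gene Sult2b1, Gm38484 that of 9130024F11Rik and Gm40855 that of Itgb1bp1. The remaining rows were shared by Gm54192 with 1110059E24Rik, Gm2518 with Taf6l, Gm30502 with Fam136a, Gm53191 with Atrip and Gm6498 with Peli2. Gm20187 and Gm9866 had one row between them, so that the 17 genes held 16 distinct rows. Counts under these symbols do not tell which of the 2 genes the reads came from.

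In 2 more genes, Gm15501 and Gm13306, some counts were not whole numbers. The count of Gm13306 doubled, less that of the chemokine gene Ccl27a, left between 38 and 121 counts (1.14 to 3.59 CPM) where Ccl27a had 1744 to 2766 counts. How gene identifiers were turned into symbols is not described in the sources used here. This left 47 of the 66 genes with a row of their own.

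By CPM, which rises with the length of a transcript and is no order of transcript number, the 10 highest members were Gm35857, Gm16286 (81.8 CPM), Gm6829, Gm44504, Gm15501 (62.0 CPM), Gm42517 (54.6 CPM), Gm51400, Gm16108, Gm19410 (41.4 CPM) and Gm46442. Of these 10, only Gm16286, Gm42517 and Gm19410 had a row of their own. Gm42517 is a synonym of Tmem271, a gene of a predicted membrane protein. It had a level of 50.9 to 64.4 CPM in Control mice and 42.6 to 57.4 CPM in EtOH mice. None of the 10 was called, and their log2 fold changes lay between -0.30 (Gm19410, 33.7 to 58.5 CPM against 27.9 to 42.3 CPM) and 0.04 (Gm15501).

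Between EtOH and Control mice, 6 of the 65 genes other than Gm2115 (9.23%) were called, that is, had an adjusted p under 0.05 by the quasi-likelihood test of edgeR (Benjamini-Hochberg, over all 16059 genes tested) and differed by more than 0.5 on the log2 scale. In all genes tested, 1331 (8.29%) were called, so the share of the 65 lay near this background. Gm35339, Gm4202 and Gm18609 were called higher (3 genes, beside 674 or 4.20% of all genes), and Gm14204, Gm40518 and Gm9899 were called lower (3 genes, beside 657 or 4.09% of all genes). The median log2 fold change of the 65 was 0.026, beside 0.0 over all genes tested. At an adjusted p under 0.05 with no minimum size, 9 of the 65 were higher and 9 lower (27.7%, beside 23.7% of all genes). Gm2115 also lies past these limits, but its result was known when the rule was written, and counting it (7 of 66, 10.6%) says nothing more about the genes. All 6 calls fell among genes with a row of their own. By annotation, 1 of 17 protein-coding genes other than Gm2115 was called, higher; 3 of 20 lncRNAs were called, all lower; 2 of 9 pseudogenes were called, both higher; and 0 of the 19 genes without a place were called, although 7 of these had an adjusted p under 0.05. Whether the classes differed was not tested. Among 522 Gm-numbered genes that were tested but lay under 5 CPM, 47 were called higher and 19 lower (12.6%).

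**Figure D1:**
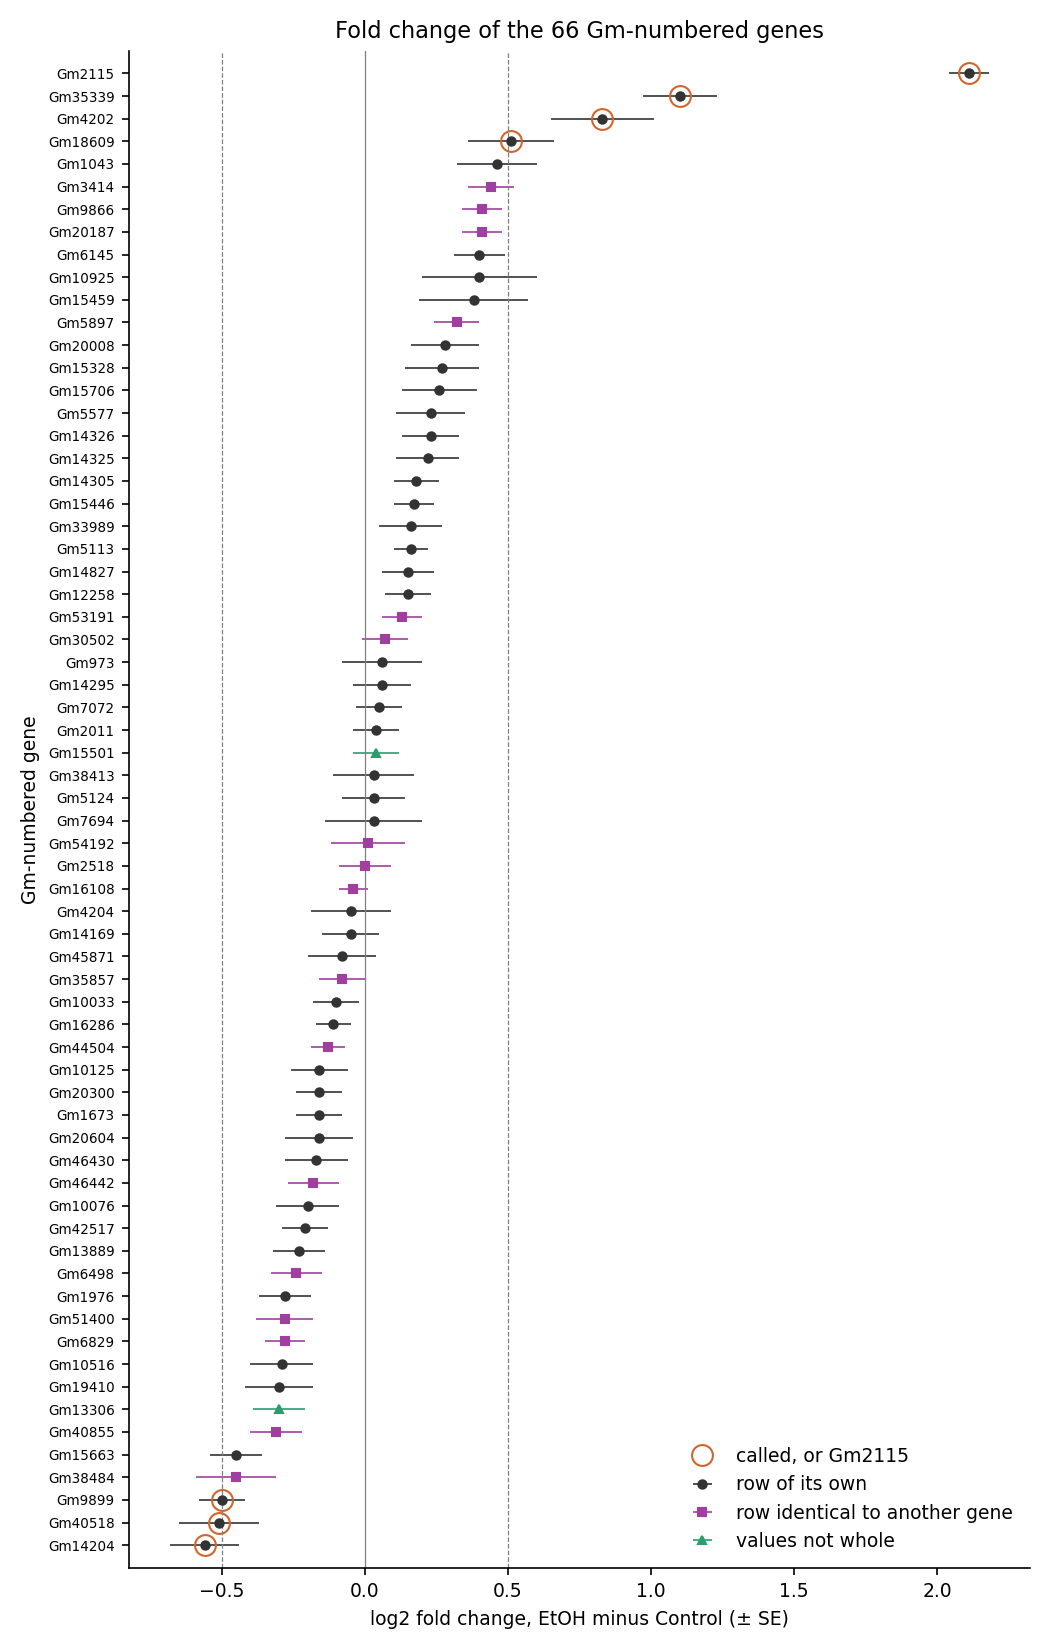
Log2 fold change (EtOH minus Control, horizontal axis, with its standard error) of each of the 66 Gm-numbered genes (vertical axis), for rows of their own (circles), rows identical to another gene (squares) and rows with values that were not whole (triangles). Rings mark the 6 called genes and Gm2115, which is given with no test, and dashed lines the limits at -0.5 and 0.5. Most genes lie between the dashed lines, and Gm2115 stands alone at 2.11.

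Gm2115 had the largest difference of the 66. Its level was 11.5 CPM in the lowest, 13.1 CPM in the median and 14.7 CPM in the highest Control mouse, and 53.4, 59.6, 65.6, 56.8 and 53.3 CPM in EtOH mice 1 to 5. The highest Control mouse lay far under the lowest EtOH mouse, and the spread within either group was small (13.2 ± 1.20 CPM, SD, n = 7, against 57.7 ± 5.10 CPM, SD, n = 5). The log2 fold change was 2.11 ± 0.07 (SE), and lay between 2.06 and 2.15 when any mouse was left out. Fah, which encodes the last enzyme of tyrosine breakdown, ends 49 bases from the end of Gm2115 and is read from the opposite strand. Fah had 18.8 to 23.8 CPM in Control mice and 19.9 to 23.6 CPM in EtOH mice, a log2 fold change of 0.01 ± 0.07 (SE, adjusted p = 0.907). The exons of Gm2115 shared 1.73% of their bases with Gm44928 on the opposite strand, which was not analysed here, and no coding transcript of another gene matched it.

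Gm35339 (Wdr97), whose WD repeats are a protein fold that serves as a platform for other proteins, was the next largest. It had 4.73 CPM in the lowest, 5.34 CPM in the median and 7.96 CPM in the highest Control mouse, and 13.8, 9.39, 14.3, 12.5 and 13.4 CPM in EtOH mice 1 to 5. All EtOH mice lay above all Control mice. The log2 fold change was 1.10 ± 0.13 (SE, adjusted p = 1.09e-05), and the call held with each mouse left out in turn. Its neighbour Maf1, which encodes a repressor of RNA polymerase III, lies 52 bases away on the same strand and had a log2 fold change of -0.03 ± 0.06 (SE, adjusted p = 0.708), with 57.9 to 66.2 CPM in Control mice and 55.4 to 66.0 CPM in EtOH mice. The ratio of Gm35339 to Maf1 was 1.15 higher on the log2 scale in EtOH mice (p = 0.00126 by an exact two-sided permutation test, 0.00379 after adjustment over 6 such pairs), where 0.00126 is the smallest p that 792 splits of the mice can give. The 6 members of these pairs were picked because they were called, so the ratio tests compare each member with its tied gene and are no separate evidence of the call. The coding transcript that matched Gm35339 best, that of Rab34, covered 2.87% of its length at 92.1% identity. Rab34 had a log2 fold change of 0.01 ± 0.1 (SE, adjusted p = 0.975).

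**Figure D2:**
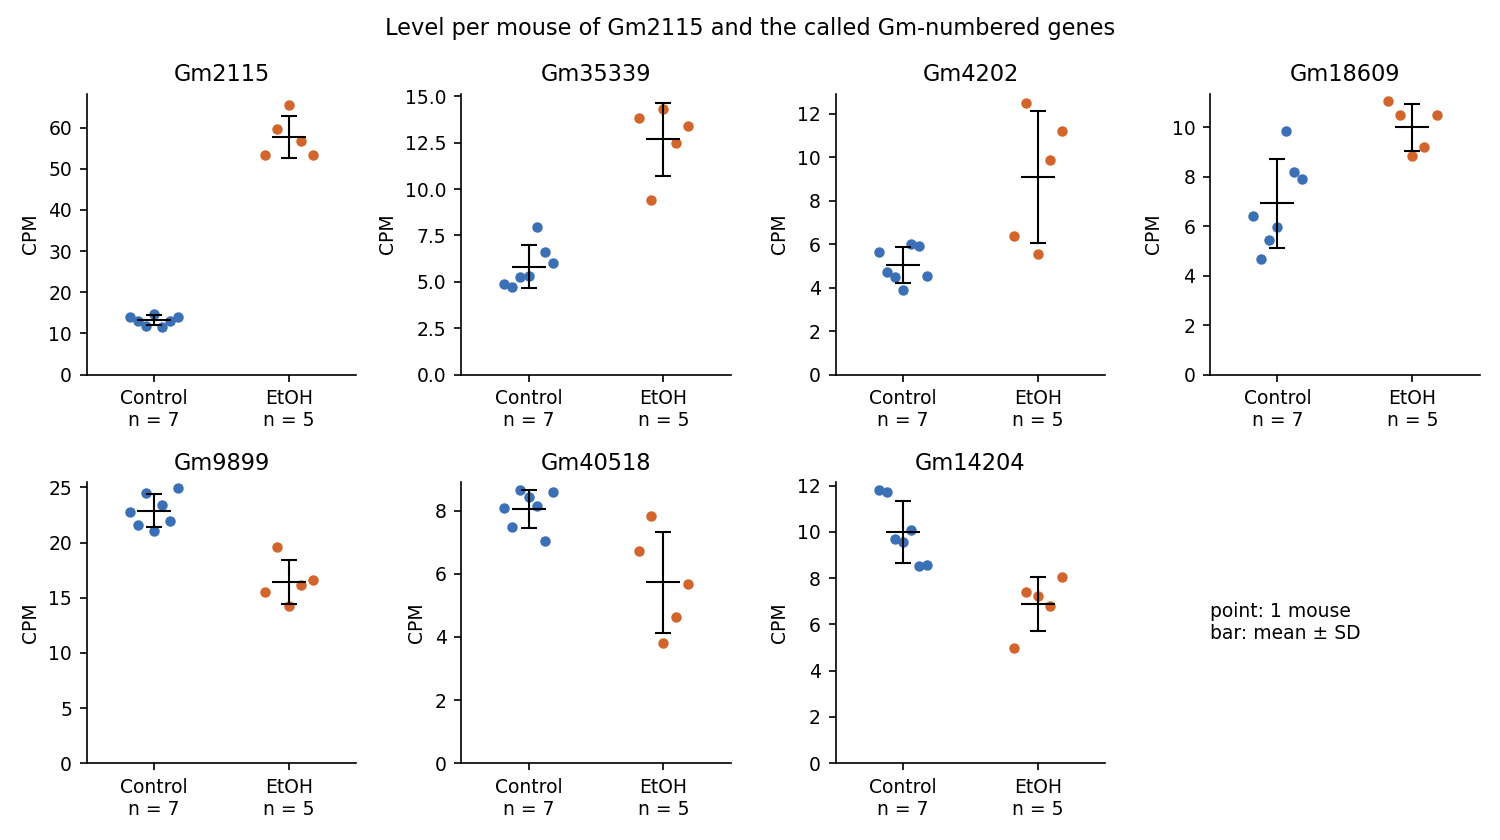
Level in CPM (vertical axes, from 0) of the 6 called Gm-numbered genes and of Gm2115 in each Control mouse (n = 7) and each EtOH mouse (n = 5). Points are mice, and bars are the mean ± SD. The groups do not overlap in Gm2115, Gm35339, Gm9899 and Gm14204, and overlap in Gm4202, Gm18609 and Gm40518.

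The 3 genes called lower were lncRNAs. Gm9899, on chromosome 5 from 30731331 to 30745963 of the minus strand, shares 29.5% of its exon bases with Gm73467 on the opposite strand. Gm73467 was not analysed here. On that strand Gm9899 also overlaps exons of Kcnk3, which encodes the potassium leak channel TASK-1. Gm9899 had 21.0, 22.8 and 24.96 CPM in the lowest, median and highest Control mouse, and 15.5, 19.6, 14.2, 16.1 and 16.6 CPM in EtOH mice 1 to 5. The groups did not overlap, and the log2 fold change was -0.50 ± 0.08 (SE, adjusted p = 0.000216). This lies at the edge of the fold threshold: leaving out Control 3, Control 7, EtOH 1 or EtOH 3 took it to between -0.48 and -0.46 and ended the call, while the adjusted p stayed at or under 0.00123 with any mouse left out. Kcnk3 had 27.0 to 35.1 CPM in Control mice and 22.2 to 27.5 CPM in EtOH mice (log2 fold change -0.28 ± 0.08, SE, adjusted p = 0.0132). The ratio of Gm9899 to Kcnk3 fell by 0.23 on the log2 scale (p = 0.00758 by the exact two-sided permutation test, 0.0152 after adjustment over the pairs).

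Gm14204, on chromosome 2 from 158437382 to 158452906 of the minus strand, overlaps on the opposite strand, by 3.31% of its exon bases, Slc32a1, which encodes the vesicular transporter that loads GABA and glycine into synaptic vesicles. On the same strand it overlaps Gm14205, which was not analysed here. Gm14204 had 8.51, 9.70 and 11.8 CPM in the lowest, median and highest Control mouse, and 4.98, 7.39, 7.20, 6.80 and 8.06 CPM in EtOH mice 1 to 5. The groups did not overlap, and the log2 fold change was -0.56 ± 0.12 (SE, adjusted p = 0.00285). Without EtOH 1, the lowest mouse and the deepest library, it was -0.45 (adjusted p = 0.00785) and no longer past the fold threshold. Slc32a1 was called lower as well, with 90.6 to 156 CPM in Control mice, 70.9 to 77.6 CPM in EtOH mice and a log2 fold change of -0.77 ± 0.09 (SE, adjusted p = 1.16e-05). The ratio of Gm14204 to Slc32a1 differed by 0.19 on the log2 scale between the groups, which did not pass (p = 0.206 by the exact two-sided permutation test, 0.247 after adjustment over the pairs). Slc32a1 is a gene of GABAergic neurons, which make up most neurons of the striatum. What part the striatum markers have in the difference of Gm14204 was not tested.

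Gm40518, on chromosome 9 from 48043802 to 48070263 of the minus strand, overlaps no exon of another gene. It had 7.04, 8.13 and 8.67 CPM in the lowest, median and highest Control mouse, and 6.71, 7.83, 3.81, 4.64 and 5.67 CPM in EtOH mice 1 to 5. EtOH 2 lay within the Control range, and the other EtOH mice below it. The log2 fold change was -0.51 ± 0.14 (SE, adjusted p = 0.0140), and leaving out Control 3, Control 7, EtOH 3 or EtOH 4 ended the call, with the log2 fold change then between -0.49 and -0.40. Its nearest coding gene, Nxpe4, 3015 bases away on the opposite strand, moved the other way, with 13.9 to 15.9 CPM in Control mice and 16.9 to 20.1 CPM in EtOH mice (log2 fold change 0.23 ± 0.07, SE, adjusted p = 0.0199). The ratio of Gm40518 to Nxpe4 fell by 0.78 on the log2 scale (p = 0.00126 by the exact two-sided permutation test, 0.00379 after adjustment over the pairs). The coding transcript that matched Gm40518 best, that of Tcp11l1, covered 4.78% of its length at 92.9% identity. Tcp11l1 was called higher (log2 fold change 0.58 ± 0.18, SE, adjusted p = 0.0241), with 7.20 to 17.3 CPM in Control mice and 15.9 to 21.3 CPM in EtOH mice.

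The remaining 2 genes called higher were pseudogenes. Gm18609, on chromosome 6 from 128162240 to 128165840 of the plus strand, matched no coding transcript, and shared 29.4% of its exon bases with Gm10010 on the opposite strand, which was not analysed here. It had 4.67, 6.44 and 9.85 CPM in the lowest, median and highest Control mouse, and 11.05, 10.48, 8.83, 9.20 and 10.51 CPM in EtOH mice 1 to 5. Control 5, the deepest Control library, lay within the EtOH range. The log2 fold change was 0.51 ± 0.15 (SE, adjusted p = 0.0203), and the call was lost in 7 of 12 fits that left out a mouse (Control 1, 2, 3 or 4, or EtOH 1, 2 or 5), with log2 fold changes between 0.43 and 0.60 over all 12 and an adjusted p of up to 0.0504. The nearest coding gene, Tspan9, a tetraspanin 26023 bases away, had a log2 fold change of 0.38 ± 0.07 (SE, adjusted p = 0.000523), with 28.4 to 37.4 CPM in Control mice and 39.5 to 46.8 CPM in EtOH mice. The ratio of Gm18609 to Tspan9 differed by 0.16 on the log2 scale, which did not pass (p = 0.485 by the exact two-sided permutation test, 0.485 after adjustment over the pairs).

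Gm4202, the copy of Ywhaz, had 3.88, 4.73 and 6.02 CPM in the lowest, median and highest Control mouse, and 6.38, 12.5, 5.55, 9.89 and 11.2 CPM in EtOH mice 1 to 5. EtOH 2, 4 and 5 were high, EtOH 1 lay just above the Control range and EtOH 3 within it. The log2 fold change was 0.83 ± 0.18 (SE, adjusted p = 0.00316), from 0.68 to 0.96 with any mouse left out, and the call held in all 12 of these fits. Ywhaz itself had 748 to 1040 CPM in Control mice and 765 to 1001 CPM in EtOH mice, with a log2 fold change of -0.15 ± 0.08 (SE, adjusted p = 0.167). The counts of Gm4202 came to 0.397% to 0.805% of those of Ywhaz in Control mice (median 0.490%) and to 0.555% to 1.54% in EtOH mice (median 1.15%). The ratio was 0.94 higher on the log2 scale in EtOH mice (p = 0.0101 by the exact two-sided permutation test, 0.0152 after adjustment over the pairs). The copy differs from Ywhaz by 1 base over the aligned positions, and how reads that match both were counted is not given in the sources used here. The nearest coding gene of Gm4202, Lce1d, a gene of the skin barrier 2216 bases away, was at 0 counts in every mouse.

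**Figure D3:**
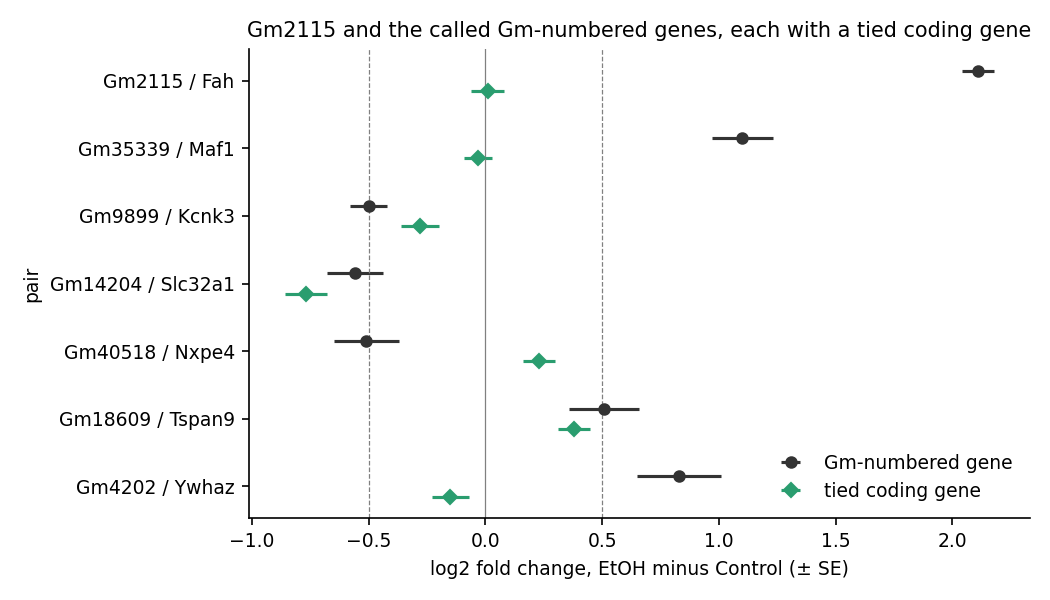
Log2 fold change (EtOH minus Control, horizontal axis, with its standard error) of Gm2115 and each called Gm-numbered gene (circles) and of the coding gene beside it in the genome or, for Gm4202, the coding gene it copies (diamonds). Dashed lines mark the limits at -0.5 and 0.5. Of the genes drawn as diamonds, only Slc32a1, beside Gm14204, lies past them, at -0.77. The diamonds of Gm2115, Gm35339 and Gm4202 lie at 0.01, -0.03 and -0.15.

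Gm15459 and Gm4204 did not pass the test. Gm15459, the copy of Hspa8, had 8.20 to 13.1 CPM in Control mice and 11.9, 20.5, 7.74, 13.9 and 20.03 CPM in EtOH mice 1 to 5, with a log2 fold change of 0.38 ± 0.19 (SE, adjusted p = 0.161). EtOH 2, 4 and 5 were again the highest mice, and EtOH 3 was the lowest of its group. Hspa8 had a log2 fold change of -0.27 ± 0.08 (SE, adjusted p = 0.0308), with 1237 to 1843 CPM in Control mice and 1236 to 1374 CPM in EtOH mice. Gm15459 came to 0.624% to 0.902% of Hspa8 in Control mice and to 0.623% to 1.66% in EtOH mice. Gm4204, the copy of Nap1l1, had 5.48 to 9.15 CPM in Control mice and 5.34 to 8.11 CPM in EtOH mice (log2 fold change -0.05 ± 0.14, SE, adjusted p = 0.818), which was 2.58% to 3.65% of Nap1l1 in Control mice and 2.43% to 3.65% in EtOH mice. Per length, on the scale of CPM per kilobase of annotated exon, the mean levels of Gm4202, Gm15459 and Gm4204 were 9.19, 6.55 and 5.86.

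**Figure D4:**
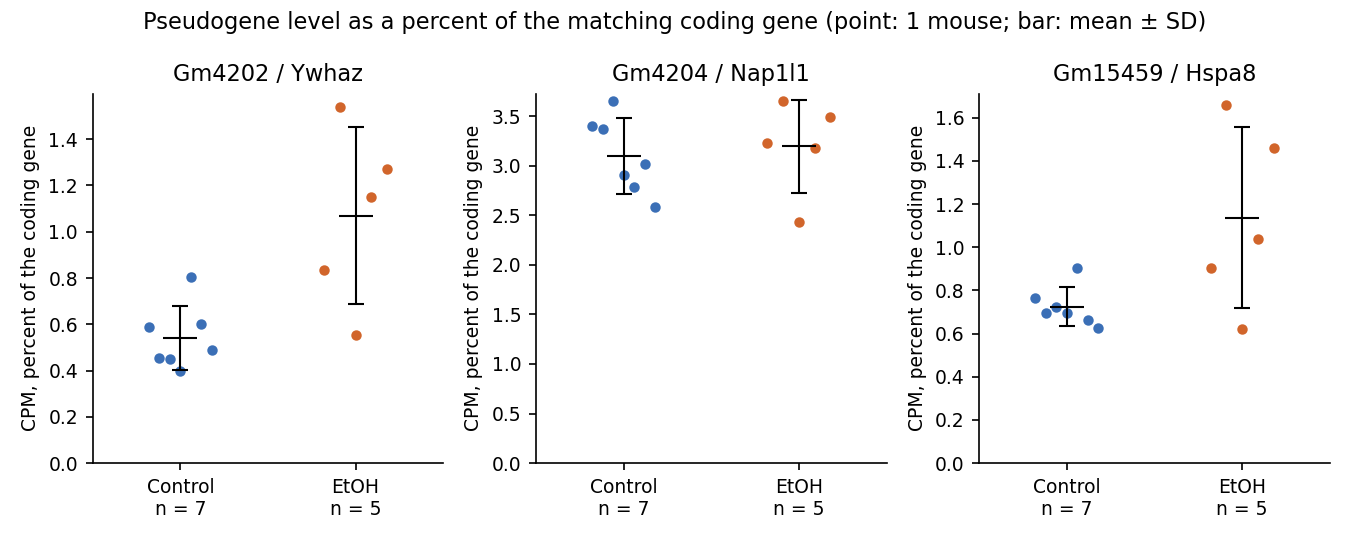
Level of 3 pseudogenes as a percent of the CPM of the coding gene each copies (vertical axes, from 0), in Control mice (n = 7) and EtOH mice (n = 5). Points are mice, and bars are the mean ± SD. EtOH mice 2, 4 and 5 stand above all Control mice in Gm4202 and Gm15459, and the groups overlap in all 3 pseudogenes.

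Of the lists of Gm-numbered genes that often take many reads, 1 gene was present. Gm10925, a member of the mitochondrial-like list of 7 genes and listed in RefSeq with the synonym mt-Atp6, had 11.7 to 24.7 CPM in Control mice and 25.3, 30.5, 10.03, 19.2 and 21.8 CPM in EtOH mice 1 to 5, with a log2 fold change of 0.40 ± 0.20 (SE, adjusted p = 0.166). The table held 0 rows of mitochondrial genes under the usual prefix, so that Gm10925 could not be set beside its mitochondrial counterpart. The 2 genes of the ribosomal RNA locus list, the 14 of the satellite-like list and the other genes of the mitochondrial-like list had no row among the counts.

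Another 12 genes had an adjusted p under 0.05 with a log2 fold change within 0.5, and 7 of these had a row identical to another symbol and 1, Gm13306, values that were not whole. Among the rows shared with another symbol, Gm20187 and Gm9866 had 25.9 to 30.8 CPM in Control mice and 32.3 to 42.5 CPM in EtOH mice, with a log2 fold change of 0.41 ± 0.07 (SE, adjusted p = 0.000267), and Gm3414 (Lcorl, a transcriptional regulator) had 12.5 to 17.2 CPM against 18.9 to 23.1 CPM, with 0.44 ± 0.08 (SE, adjusted p = 0.000672). Gm5897 (Sult2b1) had a log2 fold change of 0.32, Gm6829 (Golga7) of -0.28, Gm40855 (Itgb1bp1) of -0.31, Gm13306 of -0.30 and Gm38484 (9130024F11Rik) of -0.45. The adjusted p of Gm38484 was over the limit, at 0.0598 to 0.0872, in 6 of 12 fits that left out a mouse (Control 3 or 7, or EtOH 1, 3, 4 or 5), and that of Gm13306, at 0.0541 to 0.0621, in 3 of 12 (EtOH 1, 3 or 4). In these rows the change can be that of either gene.

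Among the rows of their own, Gm15663, a lncRNA that overlaps Tmtc2 on the opposite strand, had 7.30 to 9.32 CPM in Control mice and 5.40 to 6.46 CPM in EtOH mice, without overlap (log2 fold change -0.45 ± 0.09, SE, adjusted p = 0.00157). Gm6145, a lncRNA on chromosome 14, had 14.3 to 20.2 CPM in Control mice and 21.5 to 27.4 CPM in EtOH mice, also without overlap (0.40 ± 0.09, SE, adjusted p = 0.00354). On the strand opposite to Gm6145, 9330188P03Rik shares 14.5% of the exon bases of Gm6145 and was called lower (log2 fold change -0.85 ± 0.17, SE, adjusted p = 0.00155), with 2.58 to 4.03 CPM in Control mice and 1.42 to 2.68 CPM in EtOH mice. The pair moved in opposite directions. Gm1043, a coding model whose exons overlap Jakmip1 on the same strand, had 13.1 to 25.4 CPM against 19.9 to 29.0 CPM (0.46 ± 0.14, SE, adjusted p = 0.0257), while Jakmip1, which encodes a microtubule-binding protein of neurons, had 14.5 to 17.8 CPM against 13.2 to 16.1 CPM (-0.21 ± 0.08, SE, adjusted p = 0.0511). Control 5 was the highest Control mouse in Gm1043, and without it the log2 fold change was 0.57 (adjusted p = 0.00124), past the fold threshold, while leaving out Control 3, Control 4, EtOH 1, EtOH 4 or EtOH 5 took its adjusted p to between 0.0523 and 0.0778, over the limit. Gm1976, a lncRNA of chromosome 17, had 19.9 to 26.9 CPM against 17.5 to 21.4 CPM (-0.28 ± 0.09, SE, adjusted p = 0.0251), and leaving out Control 1, EtOH 1 or EtOH 5 took its adjusted p to between 0.0529 and 0.0742.

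The 4 members of a zinc-finger cluster on chromosome 2, Gm14295, Gm14305, Gm14325 and Gm14326, resemble one another or other Gm-numbered coding genes over 55.2% to 100% of their length at an identity of 92.9% to 94.2%. Their log2 fold changes were all above 0, from 0.06 to 0.23, as were those of 35 of the 65 members other than Gm2115. Of the 4, 0 had an adjusted p under 0.05 (0.0870 to 0.695), beside 23.7% of all genes tested. Their levels lay between 5.21 and 10.2 CPM in Control mice and between 5.92 and 10.7 CPM in EtOH mice, and the groups overlapped in each.

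Whether a member's counts could be shared with another gene was read from the annotation. Of the 47 placed genes, 30 overlapped an exon of another gene, 16 on the same strand and 23 on the opposite strand, and 13 of the 47 resembled a coding transcript over 50% or more of their length at 90% identity or more. With a row of their own, no exon overlap and no such match, 11 genes were left, of which Gm35339 was called higher and Gm40518 lower (18.2%, beside 8.29% of all genes). The strand and the treatment of reads matching several places are not given in the sources used here for the counting, so reads of overlapping genes cannot be told apart. The 47 of the 66 genes without an adjusted p under 0.05 had log2 fold changes between -0.30 and 0.40.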

How the data were processed

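Total RNA from the cortex of 12 mice was sequenced by a service. The authors checked reads with FastQC 0.11.9, aligned them to GRCm39 with STAR and counted them on genes with featureCounts, and compared groups with DESeq2. The values used here are 1 table of estimated counts per gene symbol that the authors deposited without normalization, in which 61 symbols (0.185%) hold values that are not whole. Values were rounded to whole numbers here. Columns were matched to mice by name, and 0 were left unmatched.

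All genes passing edgeR's filterByExpr (16059) were fitted together in R 4.3.3 with TMM factors and edgeR's quasi-likelihood test (edgeR 4.0.16, limma 3.58.1), with Benjamini-Hochberg adjustment. SEs are the absolute log2 fold change over the square root of F. Ratios of a member to a tied gene were compared by an exact permutation test over 792 splits. On simulated data of the EtOH against Control comparison (15911 genes), the edgeR fit recovered 183 of 200 changed genes with 3 false calls. The changed genes were all given a log2 fold change of 1 in size. Smaller changes, such as those near the fold threshold, were not simulated.

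Positions and overlaps come from Gencode release 39 of GRCm39, other names from RefSeq, and matches to coding transcripts from blastn 2.17.0 (at least 90% identity, e value 1e-10). Genes named one by one are those called, Gm2115, the 10 with the highest mean CPM, the listed Gm-numbered genes, the 3 on either side of 5 CPM and the genes tied to them. The 12 genes with an adjusted p under 0.05 and a smaller fold change, the zinc-finger cluster, the pseudogenes other than Gm4202, the members whose row is shared with another symbol or not whole, and those that stood apart in 1 mouse were named after their values were seen. The members, lists and tests were chosen with earlier results of these data known. Alternatives were DESeq2 1.42.0, limma voom, other factors, filters, fold minimums and level limits, the replicate number as a block, members without shared sequence, and each mouse left out. Entering identical rows once, keeping members with a row of their own, and leaving out the deeper library of each group were added after the data were seen. Each library is 1 mouse as labelled, and no litter or batch is given.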

Additional observations from a re-analysis of the deposited data

Results flagged for a closer look

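Dixon's test was applied to 160 groups of 5 or 7 mice: both groups of each of the 66 members, of 11 tied genes (Fah, Maf1, Kcnk3, Slc32a1, Nxpe4, Tspan9, Ywhaz, Hspa8, Nap1l1, 9330188P03Rik and Jakmip1), of the summed level of the members and of those with a row of their own, and of the total count. In 10 groups a value stood apart from the rest, where chance gives about 1 in 20 groups, or 8.0. The total counts of Control 5 (40690223, with the next at 32356913) and EtOH 1 (42183029, with the next at 33313165) were each the highest of their group. Control 5 was also the highest Control mouse in Gm10925 (24.7 CPM, next 16.1 CPM) and Gm14325 (7.50 CPM, next 5.94 CPM), and the lowest in Gm44504, whose row is that of Ubl4a (57.8 CPM, next 67.0 CPM), and in Ywhaz (748 CPM, next 925 CPM). EtOH 1 was the highest EtOH mouse in Jakmip1 (16.1 CPM, next 14.0 CPM). EtOH 2 was the highest EtOH mouse in Gm38484, whose row is that of 9130024F11Rik (28.4 CPM, next 18.3 CPM), and in the lncRNA Gm5577 (9.08 CPM, next 6.61 CPM), and EtOH 3 was the highest in the lncRNA Gm38413 (7.35 CPM, next 5.49 CPM). None of these 8 genes was called.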

How the results depend on the processing

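Except where stated, the counts of members below include Gm2115, whose result was known when the rule was written. Its log2 fold change lay between 2.06 and 2.15 under every setting. The 4 members higher and 3 lower were the same 7 genes with DESeq2 1.42.0, limma voom, relative log expression or upper quartile factors, a filter of at least 1 count in any mouse or 10 counts in every mouse, and with identical rows entered once. With no minimum fold change, 10 members were higher and 9 lower (1947 and 1863 of all genes), and with a log2 fold change of 1, 2 were higher and 0 lower (242 and 282 of all genes). The shares that follow stand beside 8.29% of all genes. A limit of 2 CPM gave 8 higher and 10 lower of 139 genes (12.9%). A limit of 10 CPM gave 1 higher, which was Gm2115, and 1 lower of 39 (5.13%). The members placed with no exon overlap, which leave out Gm2115, gave 2 higher and 1 lower of 17 (17.6%). These settings change which genes are counted, and no share was tested against that of all genes. With each mouse left out, members called higher ranged from 3 to 7 and lower from 1 to 4, over all genes from 576 to 783 higher and from 586 to 727 lower. Leaving out EtOH 3 gave 7 members higher and 1 lower, and leaving out Control 3, Control 7 or EtOH 1 gave 1 lower; the cause was not tested. Without the deeper library of each group (Control 5 and EtOH 1), 5 members were higher and 1 lower (798 and 640 of all genes), Gm9899 was at -0.47 and Gm14204 at -0.45, and Gm1043 at 0.51 was called. Without EtOH 2, Gm38484 was called lower at -0.65 (adjusted p = 0.000347, edgeR), while 6 other fits that left out a mouse took its adjusted p to 0.0598 to 0.0872. No result reversed under any of these settings.

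The replicate numbers did not pair the mice: the correlations of the deviations of same-numbered mice lay between -0.108 and 0.0182. With the replicate number as a block, 5 members were higher and 2 lower (690 and 634 of all genes), with Gm9899 at -0.49 and Gm1043 at 0.51, and the adjusted p rose to 0.133 for Gm1976 and 0.0771 for Gm38484. The lowest level of any member in any mouse was 3.80 CPM, above the 0.0944 CPM that 3 counts are worth. No member lay near the floor, which the choice of members by a mean of 5 CPM or more makes likely.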
